A study of Rattus norvegicus with 2 samples.

Results

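The taste-type signalling cascade was followed as 8 genes, Trpm5, Gnat3, Plcb2, Itpr3, Gng13, Gnb3, Tas1r3 and Sucnr1, taken by symbol from the 32883 genes of the count matrices. All 8 were listed and all 8 had at least 1 unique molecular identifier (UMI, a tag that counts one captured transcript) in tuft-like cells. The cells came from the proximal jejunum of 2 adult male Sprague Dawley rats, 6 to 8 weeks old and 180 to 200 g, which had been fasted overnight. Epithelium was released with EDTA and dispase, and 1 droplet library was made per rat with 3' chemistry. Both rats were untreated and of one condition, so the comparisons run between cell types of the same animals and n = 2 rats throughout.

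In taste buds, sweet, umami and bitter receptors couple to a G protein made of gustducin (Gnat3) with the beta subunit Gnb3 and the gamma subunit Gng13. The released subunits activate phospholipase C (Plcb2), inositol trisphosphate opens its receptor on the calcium store (Itpr3), and calcium opens the cation channel Trpm5. Tuft cells are rare chemosensory cells of the gut epithelium that use parts of this cascade, and in the small intestine their succinate receptor Sucnr1 links luminal microbes and protists to type 2 immunity. Tas1r3 is the shared subunit of the sweet and umami receptors.

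The libraries held 12033 barcodes and 99986348 UMIs in rat 1 and 8252 barcodes and 66469907 UMIs in rat 2. With over 1000 UMIs and at most 40% mitochondrial UMIs, 9345 and 5523 cells were retained, with medians of 9687 and 4077 UMIs. Clustering without the 8 genes and their pathway gave 8 named epithelial classes, which together held 4966 cells of rat 1 and 1631 of rat 2, beside 2082 and 545 epithelial cells left unnamed. Tuft-like cells numbered 127 in rat 1 (1.80% of epithelial cells) and 172 in rat 2 (7.90%), with 417622 and 1172978 UMIs in all. All 10 tuft markers used for the name were detected in both rats, among them Dclk1 at 958 and 1563 CPM (counts per 1e+06 UMIs), Pou2f3 at 237 and 317 CPM and Avil at 1439 and 1981 CPM. Between them, the libraries shared 28 barcode sequences, of which 1 was a tuft-like cell of rat 2. Values below are sums over all cells of a class in 1 rat, with exact 95% Poisson intervals that cover counting error only. The tags count transcript ends and were not scaled by length, so each gene is compared between classes and not with other genes.

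The regulatory sequence next to 3 of the members that were higher in tuft-like cells and of Itpr3, which was lower, is shown so that they can be set side by side. Of the 8 genes, 6 had an entry among the RefSeq promoters of build GRCr8, and the 250 bases before the annotated start are printed 5' to 3'. Gnat3 lies at chr4:18104333-18104582, minus strand, Trpm5 at chr1:207707089-207707338, minus strand, Sucnr1 at chr2:146368608-146368857, plus strand, and Itpr3 at chr20:5138562-5138811, plus strand. Capitals mark the octamer ATGCAAAT, the sequence that POU factors such as Pou2f3 bind, searched on both strands with no other motif.
Gnat3: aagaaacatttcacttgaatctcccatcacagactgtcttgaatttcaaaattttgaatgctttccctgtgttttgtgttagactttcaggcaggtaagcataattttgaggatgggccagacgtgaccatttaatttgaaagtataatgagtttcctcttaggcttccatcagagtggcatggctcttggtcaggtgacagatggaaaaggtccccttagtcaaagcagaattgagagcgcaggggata
Trpm5: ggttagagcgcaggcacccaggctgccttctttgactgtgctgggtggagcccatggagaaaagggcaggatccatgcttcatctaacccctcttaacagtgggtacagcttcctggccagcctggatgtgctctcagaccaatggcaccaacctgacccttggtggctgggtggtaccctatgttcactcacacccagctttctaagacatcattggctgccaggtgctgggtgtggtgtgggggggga
Sucnr1: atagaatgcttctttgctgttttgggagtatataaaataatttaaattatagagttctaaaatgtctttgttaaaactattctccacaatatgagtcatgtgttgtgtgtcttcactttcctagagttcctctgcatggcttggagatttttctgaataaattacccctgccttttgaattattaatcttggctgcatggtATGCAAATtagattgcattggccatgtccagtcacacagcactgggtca
Itpr3: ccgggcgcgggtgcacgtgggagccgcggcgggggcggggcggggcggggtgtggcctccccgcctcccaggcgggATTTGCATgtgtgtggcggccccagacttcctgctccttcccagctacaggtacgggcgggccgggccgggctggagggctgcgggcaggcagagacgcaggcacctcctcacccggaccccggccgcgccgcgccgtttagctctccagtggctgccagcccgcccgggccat

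The octamer occurred once before Sucnr1, on the forward strand and ending 41 bases before the start, and once before Itpr3, on the reverse strand and ending 166 bases before it. It was not in these windows of Gnat3, Trpm5, Gng13 or Tas1r3. Over all 33469 promoters, 523 (1.56%) held it in the same 250 bases. A match describes the letters and is not a binding site. The windows differed more in base composition. Itpr3 held 28 CpG dinucleotides and 77.2% G and C, whereas Gnat3 held 2 and 41.6%, Trpm5 1 and 57.6%, Sucnr1 0 and 35.6%, and Gng13 6 and 62.0%. The median over all promoters was 5 CpG, and 6.79% held at least as many as Itpr3.

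The first comparison asked which members stood higher or lower in tuft-like cells than in the mean of the 7 other epithelial classes. The members that rose had different roles, namely the receptor Sucnr1, the G protein subunits Gnat3 and Gng13 and the channel Trpm5, whereas the calcium release channel Itpr3 fell. Plcb2 was too low for the filter on counts, and Gnb3 and Tas1r3 were at or near 0 everywhere. Of the 5 members that could be tested, 4 were called higher and 1 lower (edgeR quasi-likelihood test on 16 sums, adjusted p under 0.05), where 12.1% of the 8946 genes tested were called higher and 4.33% lower. The 4 that rose passed the filter on low counts almost wholly through tuft-like cells, which held 96.6% of the Trpm5 UMIs, 92.3% of Gnat3, 91.1% of Gng13 and 91.9% of Sucnr1 over the named classes. Their direction was thus largely fixed by passing, and nothing is read from the count beside the background. Fitted fold changes of genes with sums at 0 depend on the fit's small added count, so the size of each difference is given as the ratio of CPM to all other named epithelial cells of the same rat, most of which were enterocyte-like.

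Of the receptors, Sucnr1 was found in tuft-like cells at 28.7 CPM in rat 1 (12 UMIs, interval 14.9 to 50.2) and 18.8 CPM in rat 2 (22 UMIs, interval 11.8 to 28.4). Of the 14 other sums 11 held no UMI, and the others held 1 each. The shallowest of them, CHE-like cells of rat 1, allows up to 37.3 CPM at a count of 0, so its place in the order is not known. Against all other cells, with 2 UMIs in rat 1 and 1 in rat 2, the ratio was 912 (203 to 8394) and 496 (80.2 to 20460). The call held (adjusted p = 1.28e-05, edgeR). Tas1r3 had 1 UMI in tuft-like cells of rat 2 and none in rat 1, where up to 7.18 CPM would be allowed by a count of 0, and none in any other named class. Its partner in the umami receptor, Tas1r1, had 170 UMIs over the named classes, 149 of them in enterocyte-like cells and 1 in tuft-like cells, and did not pass the filter.

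Gnat3, the gustducin alpha subunit, was the member with the most UMIs in tuft-like cells. It stood at 891 CPM in rat 1 (372 UMIs, interval 803 to 986) and 1286 CPM in rat 2 (1508 UMIs, interval 1222 to 1352). The other cells of the same rats held 0.945 and 3.67 CPM, which made the tuft-like level 943 times (716 to 1260) and 350 times (285 to 435) as high (adjusted p = 5.11e-08, edgeR). The second ratio rests on 1 CHE-like cell, described below with that class, which gave 71 of the 97 UMIs in the other cells of rat 2. Without it the others held 0.985 CPM and the ratio was 1306 (888 to 2005). In stem-like cells Gnat3 was at 1.02 CPM (rat 1) and 4.49 CPM (rat 2, 3 UMIs from 1 cell). In enterocyte-like cells it was at 1.04 and 0.682 CPM, and these neighbours in the order did not differ beyond their intervals. Goblet-like, goblet/Paneth-like and EEC-like cells of both rats held none.

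Gng13, the gamma subunit that pairs with gustducin in taste cells, was at 474 CPM in tuft-like cells of rat 1 (198 UMIs, interval 410 to 545) and 130 CPM in rat 2 (152 UMIs, interval 110 to 152). Its highest level elsewhere was 8.57 CPM, from 2 UMIs in EEC-like cells of rat 1. The ratio to all other cells was 1255 (819 to 2005) and 343 (181 to 729), with an adjusted p of 3.91e-08 in edgeR. Gnb3, the beta subunit of the taste cell trimer, gave 1 UMI among tuft-like cells of rat 2, 1 UMI among stem-like cells of rat 1 and none in the 14 remaining sums. The gustducin alpha and gamma subunits were therefore measured in tuft-like cells without their usual beta subunit rising above the limit of detection, 2.56 CPM in the deeper sum of rat 2.

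The steps that follow the G protein were less uniform. Plcb2 was at 50.3 CPM in tuft-like cells of rat 1 (21 UMIs, interval 31.1 to 76.9) and at 5.12 CPM in rat 2 (6 UMIs, interval 1.88 to 11.1). In all other cells it was at 0.205 and 0.0757 CPM, 13 and 2 UMIs, a ratio of 246 (117 to 534) and 67.6 (12.1 to 685). It did not pass the filter on low counts, and with that filter removed it was called higher (log2 fold change 8.05, adjusted p = 4.52e-12, edgeR). Without the filter Gnb3 and Tas1r3 were not called (adjusted p = 0.365 and 0.289, edgeR). Removing the filter also took the adjusted p of Gnat3 from 5.11e-08 to 8.16e-132 (edgeR). Adjusted p values of that setting therefore cannot be set beside those of the main fit.

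Itpr3, the inositol trisphosphate receptor of taste cells, ran the other way. In tuft-like cells it was absent from 417622 UMIs in rat 1, which allows up to 7.18 CPM, and at 6.82 CPM in rat 2 (8 UMIs, interval 2.94 to 13.4), from 8 cells with 1 UMI each. Every other class had it, from 25.5 CPM in enterocyte-like cells of rat 1 to 239 CPM in EEC-like cells of rat 2, so both tuft-like sums lay below all 14 others. Tuft-like cells of rat 1 held at least 4.13 times less than the other cells together (29.7 CPM), and in rat 2 the tuft-like level was 0.171 of the others' (interval 0.0735 to 0.337). The fitted log2 fold change was -3.89 (SE 0.62, adjusted p = 0.000362, edgeR).

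Trpm5, the calcium-gated cation channel at the end of the cascade, was at 64.7 CPM in rat 1 (27 UMIs, interval 42.6 to 94.1) and 124 CPM in rat 2 (145 UMIs, interval 104 to 146). Among the 14 other sums 11 held none and the highest was 0.948 CPM, 1 UMI in CHE-like cells of rat 2. With 5 and 1 UMIs in the other cells, the ratio was 821 (312 to 2731) and 3268 (577 to 130000), and the adjusted p was 3.08e-07 in edgeR. Only 8 tuft-like cells of rat 1 had over 5000 UMIs, and these held no Trpm5.

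**Figure D1:**
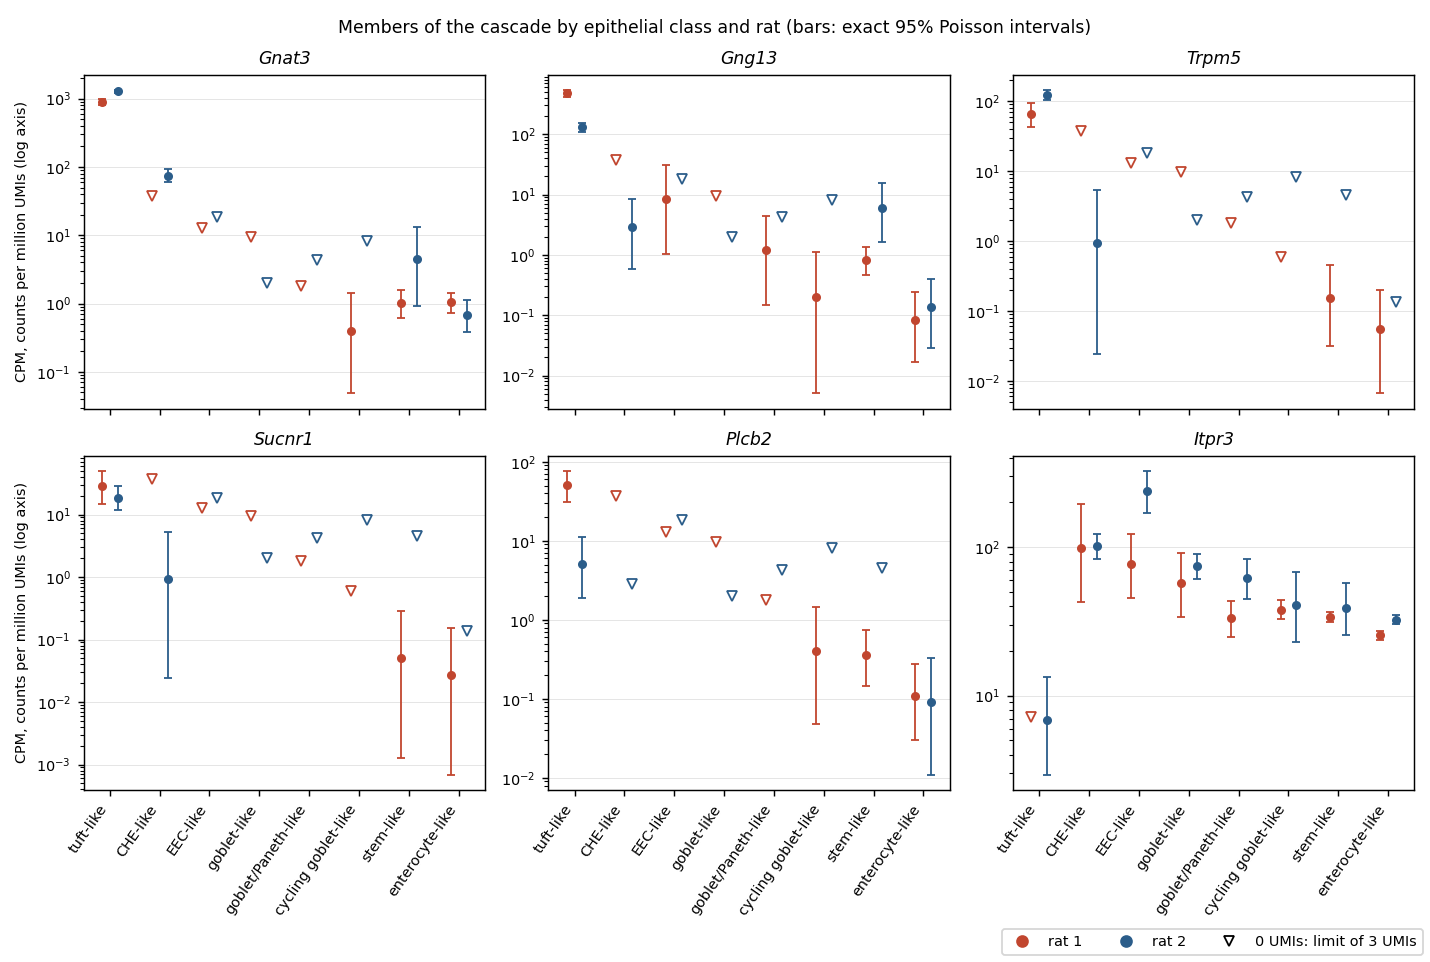
CPM (log axis) of 6 members in 8 epithelial classes, 1 point per rat with its exact 95% Poisson interval. Open triangles stand for sums with 0 UMIs, drawn at the level of 3 UMIs. Gnat3, Gng13 and Trpm5 were highest in tuft-like cells of both rats, and Itpr3 was lowest there. Sucnr1 of both rats and Plcb2 of rat 2 lie below the triangle of the shallowest sum, CHE-like cells of rat 1.

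The share of cells with a UMI depends on depth, so each cell was thinned to 1000 UMIs before shares were compared. Gnat3 was then seen in 51 of 127 tuft-like cells of rat 1 (40.2%, exact binomial interval 31.6% to 49.2%) and 88 of 172 of rat 2 (51.2%, 43.4% to 58.9%). In enterocyte-like cells, which should lack it and had medians of 11680.5 and 19967 UMIs before thinning, 0.0660% and 0.0896% had a UMI. Thinned leukocytes gave 0.1062% and 0.2175%, and thinned unnamed epithelial cells 0.0961% and 0.917%, all below the tuft-like shares. The part of free RNA in any of these shares was not tested. Without thinning the tuft-like shares were 60.6% and 79.7%, at median depths of 3410 and 6743 UMIs per cell.

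For Gng13 the thinned shares were 30.7% (22.8% to 39.5%) and 10.5% (6.32% to 16.03%), and for Trpm5 8.66% (4.40% to 15.0%) and 9.30% (5.41% to 14.7%). The unthinned Trpm5 shares, 17.3% and 48.8%, differed between the rats, while the thinned ones lay within each other's intervals. Sucnr1 remained in 1 and 5 thinned cells and Plcb2 in 2 and 1, near the level of 1 UMI, so no order is read from them. Itpr3, thinned, was in 0 of 127 and 2 of 172 tuft-like cells, against 2.77% and 2.87% of enterocyte-like cells.

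More than 1 member was often detected in the same cell. The shares were not set against those that the separate detection of each gene would give, so they are descriptions and not a measure of joint expression. Counting Trpm5, Gnat3, Plcb2, Gng13 and Sucnr1, at least 1 was detected in 88.2% of tuft-like cells of rat 1 (81.3% to 93.2%) and 94.2% of rat 2 (89.6% to 97.2%). At least 2 were detected in 69 of 127 cells (54.3%) and 113 of 172 cells (65.7%), and none of these cells held all 5. Thinning to 1000 UMIs left 65.4% and 61.1% with at least 1, and 15.7% and 12.2% with at least 2. Of thinned enterocyte-like cells 0.0990% and 0.0896% had any of the 5.

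Sucnr1 was seen only beside Gnat3 in tuft-like cells. All 9 cells of rat 1 and all 18 of rat 2 with a Sucnr1 UMI also held Gnat3, which was in 77 of 127 and 137 of 172 cells overall. For Trpm5 and Gnat3 the rats differed. In rat 2 Trpm5 was in 53.3% of cells with Gnat3 and 31.4% of those without, and in rat 1 in 13.0% and 24.0%. Plcb2 was in 3 of the 77 cells with Gnat3 and 11 of the 50 without in rat 1, and in 2 of 137 and 4 of 35 in rat 2. In sparse counts such splits can follow depth as well as expression. Cells with Gnat3 were deeper (median 3539 against 3055.5 UMIs in rat 1, 6981 against 5160 in rat 2). Plcb2 in both rats and Trpm5 in rat 1 were nevertheless found in a smaller share of these deeper cells. The part of depth was not tested, and the splits are given as descriptions without a test.

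**Figure D2:**
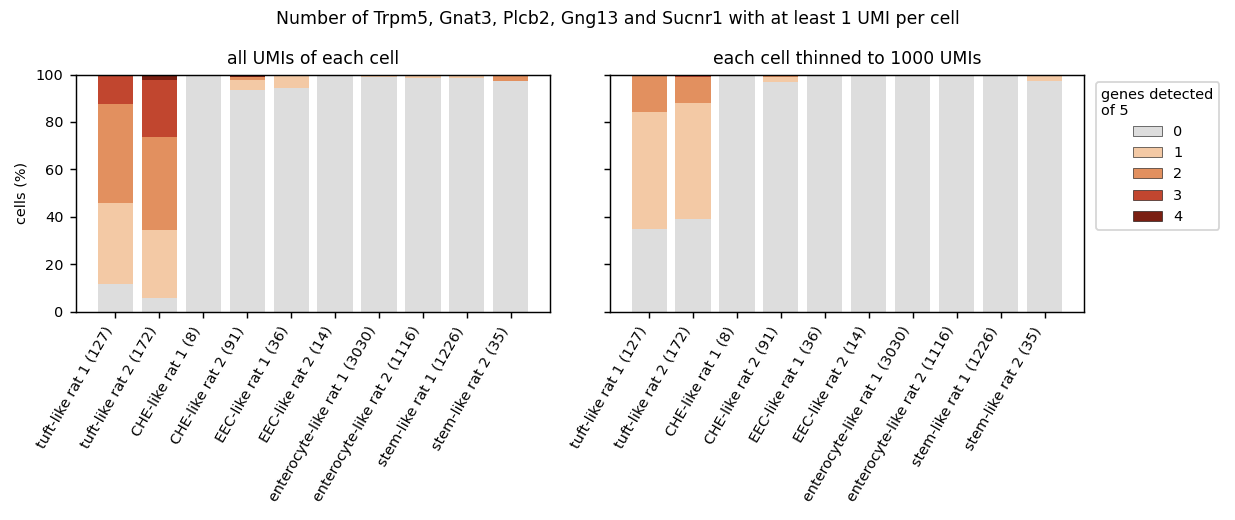
Percent of cells (linear axis from 0) by how many of Trpm5, Gnat3, Plcb2, Gng13 and Sucnr1 had at least 1 UMI, for 5 classes in each rat, with cell numbers in brackets, using all UMIs (left) and 1000 UMIs per cell (right). Tuft-like bars are mostly filled, with 88.2% and 94.2% of cells holding at least 1 of the 5 before thinning, and the other classes are nearly empty.

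The rats did not show the same balance of members in tuft-like cells. By CPM, Gng13 was 3.66 times as high in rat 1 as in rat 2 (interval 2.95 to 4.55) and Plcb2 9.83 times (3.84 to 29.8), whereas Trpm5 was 1.91 times as high in rat 2 (1.26 to 3.001) and Gnat3 1.44 times (1.29 to 1.62). Sucnr1 had a ratio of 1.53, rat 1 over rat 2, with an interval of 0.691 to 3.23. With 1 library per rat these intervals cover counting error alone, and there is no test between the rats. Over 2-fold differences were seen for 2 of the 5 members with at least 20 UMIs, and for 19.0% of the 5999 genes with as many UMIs in tuft-like cells.

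The tuft-like cells of the rats also differed in depth, in stem marker RNA and in hemoglobin. Ascl2, a stem cell transcription factor, was at 81.4 CPM (rat 1) and 16.2 CPM (rat 2), and all 7 stem markers together at 230 and 92.1 CPM. Lgr5, another of the 7, did not follow Ascl2. It was at 9.58 and 14.5 CPM, a ratio of rat 1 to rat 2 of 0.661 (0.162 to 2.03). Stem-like cells held Ascl2 at 27.3 and 37.45 CPM, so tuft-like cells were above them in rat 1 and below them in rat 2. The 4 erythroid markers together, hemoglobin included, were at 256 and 13320 CPM, and 11 tuft-like cells of rat 2 held over 1% of such UMIs. Enterocyte markers came to 39210 and 32510 CPM, mostly Fabp1, and no collagen or decorin UMI was found. Fabp1 was at 36250 and 29670 CPM in tuft-like cells, against 59980 and 25130 CPM in enterocyte-like cells. Other enterocyte markers were far lower in tuft-like than in enterocyte-like cells. Apoa1 was at 1851 and 1497 CPM against 45620 and 33660 CPM, and Alpi at 35.9 and 113 CPM against 817 and 2462 CPM. The Cell Ranger versions in the file headers, 3.1.0 and 5.0.1, cannot be told apart from the rats. The part of stem marker and hemoglobin RNA in the differences was not tested. For depth, cells with at most 5000 UMIs gave Gng13 at 501 CPM in rat 1 (119 cells) and 165 CPM in rat 2 (45 cells), Plcb2 at 40.6 CPM and 0 UMIs, and Trpm5 at 73.1 and 137 CPM, so these differences kept their direction at like depth. Gnat3, at 880 and 907 CPM in those cells, and Trpm5, with 27 and 20 UMIs, did not differ beyond their intervals there. Plcb2 rests there on 15 UMIs in 369387 (rat 1) against 0 in 145584 (rat 2), so the size of its difference at like depth is not known.

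**Figure D3:**
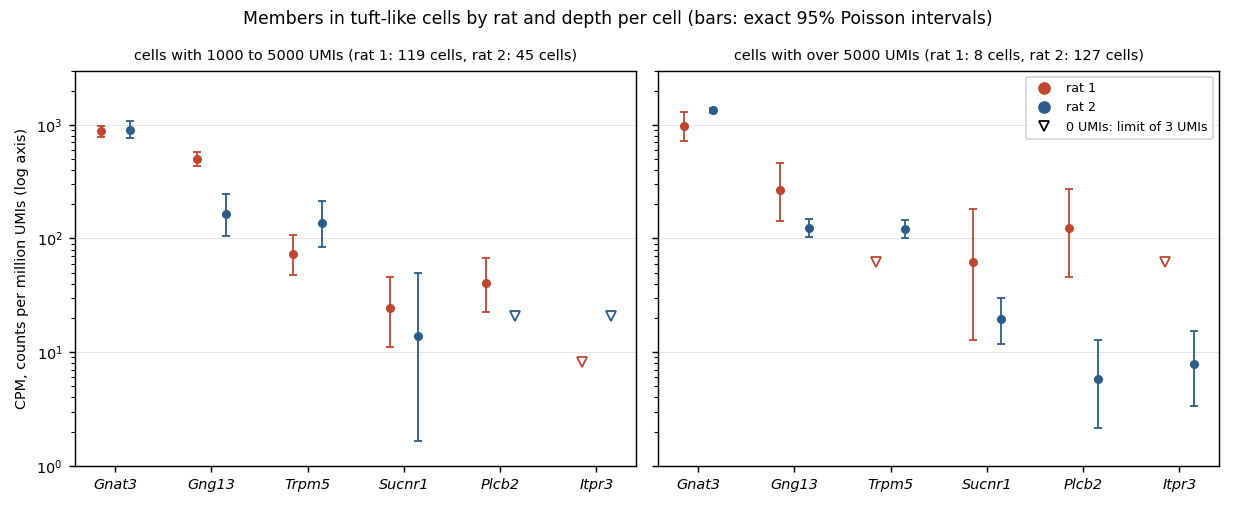
CPM (log axis) of 6 members in tuft-like cells of each rat, in cells with 1000 to 5000 UMIs (left) and over 5000 UMIs (right), with exact 95% Poisson intervals. Open triangles stand for 0 UMIs, drawn at the level of 3 UMIs. Gng13 was higher in rat 1 in the shallower cells (501 against 165 CPM), while Gnat3 was alike there.

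Enteroendocrine cells (EECs) are the other sensory class of this epithelium, and apart from Itpr3 the cascade was not detectable in them at their depth. No UMI of Trpm5, Gnat3, Plcb2, Gnb3, Tas1r3 or Sucnr1 was found in the 36 EEC-like cells of rat 1 (233454 UMIs) or the 14 of rat 2 (163523 UMIs), and a count of 0 allows up to 12.9 and 18.4 CPM. Gng13 gave 2 UMIs in rat 1. Itpr3 was at 77.1 CPM in rat 1 (18 UMIs, interval 45.7 to 122) and 239 CPM in rat 2 (39 UMIs, interval 170 to 326), and it was higher than in the mean of the 6 other classes without tuft-like cells (log2 fold change 1.54, SE 0.40, adjusted p = 0.0212, edgeR). In this comparison 8.72% of genes were called higher and 2.07% lower. The Itpr3 call was lost when enterocyte-like cells were left out (log2 fold change 1.38, adjusted p = 0.0584, edgeR) and in cells over 5000 UMIs (1.20, adjusted p = 0.147, edgeR). From rat 1 alone the difference in log2 CPM was 0.72 and from rat 2 alone 1.72, with no test.

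CFTR high expresser cells (CHEs), rare cells rich in the chloride channel Cftr, were set beside tuft cells because the study placed them on one branch. Gnat3 was called higher in CHE-like cells than in the mean of the 6 other classes without tuft-like cells (fitted log2 fold change 8.70, SE 0.86, adjusted p = 3.79e-05, edgeR), where 8.81% of genes were called higher and 4.31% lower. The values rest on rat 2. None of the 8 CHE-like cells of rat 1 held Gnat3, and in rat 2 it stood at 74.9 CPM, 5.82% of the tuft-like level, from 79 UMIs in 5 of 91 cells. A single cell gave 71 of the 79. That cell, with 29893 UMIs, also held 26 of the 35 Dclk1 UMIs of the class, beside 25 UMIs of Cftr, so transcripts of both cell types were in 1 barcode. Without it Gnat3 was at 7.80 CPM, 0.607% of the tuft-like level, and was still called (log2 fold change 5.78, adjusted p = 0.00721, edgeR). That call rests on 8 UMIs, all in rat 2. Stem-like cells of rat 2 were at 4.49 CPM (3 UMIs, interval 0.927 to 13.1), an interval that holds the CHE-like level. All 3 UMIs came from 1 of 35 stem-like cells, which also held Gng13. These counts therefore do not set CHE-like cells apart from stem-like cells of that rat.

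Of the remaining members in CHE-like cells, Gng13 had 3 UMIs and Trpm5 and Sucnr1 1 each, all in rat 2, and Plcb2, Gnb3 and Tas1r3 none. Itpr3 was at 99.3 CPM in rat 1 (8 UMIs, interval 42.9 to 196) and 101 CPM in rat 2 (107 UMIs, interval 83.1 to 122), and it did not pass the test (log2 fold change 0.88, SE 0.41, adjusted p = 0.178, edgeR). Over the other classes Itpr3 ran from goblet-like cells (57.5 and 74.4 CPM) through goblet/Paneth-like (33.2 and 61.6 CPM), cycling goblet-like (37.9 and 41.1 CPM) and stem-like cells (33.9 and 38.9 CPM) to enterocyte-like cells, and the rats' intervals overlapped between each neighbouring pair from goblet/Paneth-like to stem-like cells.

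The other genes of the pathway, 117 gene entries in 8 lists of receptors, G protein subunits, phospholipases C, calcium store genes, taste cell ion channels and signal regulators, were read in the same fit of tuft-like cells. Of the 38 that passed the filter, 9 were called higher and 4 lower, beside the 12.1% and 4.33% of all genes, and the median log2 fold change was 0.23 against 0.15 over all genes tested. Those higher were the receptor Ffar3, the alpha subunit Gnai2, the phospholipase Plcg2, the calcium store genes Itpr2, Orai2 and Atp2a3, and the regulators Rgs2, Rgs13 and Rgs22. Tuft-like cells held 915 of 944 Ffar3 UMIs over the named classes and 230 of 280 for Plcg2. They also held 3108 of 3303 Rgs13 UMIs, 696 of 807 for Rgs2 and 156 of 181 for Rgs22. The direction of such genes was largely fixed by passing the filter, so nothing is read from the counts of calls beside the background. With rat as a block, 13 were called higher and 5 lower, the additional ones being Gnai1, Gng10, Stim1 and Ric8a (higher) and 1 of the 2 Gnas entries (lower), with adjusted p from 0.00152 to 0.0471 (edgeR).

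Itpr2 was at 309 CPM (rat 1) and 313 CPM (rat 2), which was 35.3 times (28.9 to 42.8) and 22.8 times (19.7 to 26.4) the level in the other cells (adjusted p = 3.28e-09, edgeR). Its highest level elsewhere was 16.2 CPM in enterocyte-like cells of rat 2. Among the 3 inositol trisphosphate receptors, Itpr2 was therefore higher and Itpr3 lower in tuft-like cells, and Itpr1 was not called (log2 fold change -1.04, adjusted p = 0.232, edgeR). Plcg2, which is activated by tyrosine kinases rather than by G protein subunits, was at 132 and 149 CPM, 226 times (146 to 353) and 303 times (173 to 581) the other cells (adjusted p = 4.10e-08, edgeR). Plcb4, a phospholipase C activated by G proteins, was called lower, with no UMI in rat 1 and 1 in rat 2 (adjusted p = 0.00131, edgeR). In rat 1 a count of 0 allows up to 7.18 CPM, against 10.5 CPM in the other cells. In rat 2 the ratio to the other cells was 0.0746 (0.00188 to 0.419). CHE-like cells of rat 1 held no Plcb4 either. Plcb3 was not called (log2 fold change -1.08, adjusted p = 0.541, edgeR).

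In the list of 48 taste and metabolite receptors, 5 had a UMI in tuft-like cells and 3 could be tested. Ffar3, a receptor for short-chain fatty acids, was higher at 520 and 595 CPM, 1571 times (1002 to 2590) and 1966 times (993 to 4573) the other cells (adjusted p = 1.71e-09, edgeR). EEC-like cells held it at 34.3 and 6.12 CPM and were called higher than the classes other than tuft-like cells too (adjusted p = 0.00019, edgeR). That call rests on 9 UMIs, and the 6.12 CPM of rat 2 is 1 UMI, below the limit of 18.4 CPM. Ffar4, a receptor for long-chain fatty acids, was lower in the fit (log2 fold change -2.55, adjusted p = 0.0155, edgeR), although in rat 1 the ratio to the other cells, 0.825, had an interval of 0.356 to 1.63. The 35 bitter receptor genes (Tas2r) gave 4 UMIs in all named classes, 1 of them in a tuft-like cell.

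Among G alpha subunits Gnai2, which inhibits adenylyl cyclase as its family does, rose to 922 and 1304 CPM, 17.5 times (15.7 to 19.5) and 12.9 times (12.1 to 13.7) the other cells (adjusted p = 0.000429, edgeR), though CHE-like cells of rat 2 held 646 CPM. Gna11, which couples receptors to phospholipase C beta, was called lower (log2 fold change -1.69, adjusted p = 0.0372, edgeR). That call was lost without enterocyte-like cells (-1.46, adjusted p = 0.102, edgeR), and goblet-like cells of rat 2, at 6.03 CPM, held less than the tuft-like cells at 14.4 and 10.2 CPM. The other 7 alpha entries and all G beta and gamma subunits of the lists were not called without the block. Gnb1 stood at 132 and 114 CPM and Gnb2 at 515 and 521 CPM in tuft-like cells, with fitted log2 fold changes of 0.18 (SE 0.28) and 0.12 (SE 0.28). Gng10 stood at 1231 and 882 CPM with 0.62 (SE 0.29, adjusted p = 0.174, and 0.0471 with the block, edgeR).

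Further along, the calcium pump of the endoplasmic reticulum Atp2a3 was higher, at 1456 and 2599 CPM (adjusted p = 8.35e-06, edgeR), and goblet/Paneth-like cells of rat 2 came next at 826 CPM. The store-operated channel subunit Orai2 was called higher at 98.2 and 133 CPM (adjusted p = 0.00594, edgeR), but EEC-like cells of rat 2 held 165 CPM, and the call was lost without enterocyte-like cells (log2 fold change 0.91, adjusted p = 0.254, edgeR). Trpm4, the channel closest to Trpm5 in its family, was lower at 9.58 and 6.82 CPM against 87.6 and 106 CPM in the other cells (adjusted p = 0.000536, edgeR). It was low in EEC-like cells as well, at 4.28 and 24.5 CPM, and called lower there against the classes other than tuft-like cells (adjusted p = 0.0166, edgeR). EEC-like cells held 5 Trpm4 UMIs in all, and the 4.28 CPM of rat 1 is 1 UMI, below the limit of 12.9 CPM. Of the 4 signal regulators tested 3 rose, all of them Rgs proteins, which speed the shut-off of G alpha subunits. These 3 passed the filter largely through tuft-like cells, so nothing is read from that count. Rgs13 was at 2591 and 1727 CPM (adjusted p = 2.74e-09, edgeR), Rgs2 at 280 and 494 CPM (adjusted p = 3.95e-07, edgeR), and Rgs22 at 105 and 95.5 CPM (adjusted p = 3.64e-07, edgeR). EEC-like cells held Rgs2 at 64.3 and 232 CPM and Rgs22 at 17.1 and 6.12 CPM, and both were called higher there against the classes other than tuft-like cells (adjusted p = 2.02e-05 and 0.00943, edgeR). The Rgs22 call there rests on 5 UMIs, of which rat 2 gave 1.

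**Figure D4:**
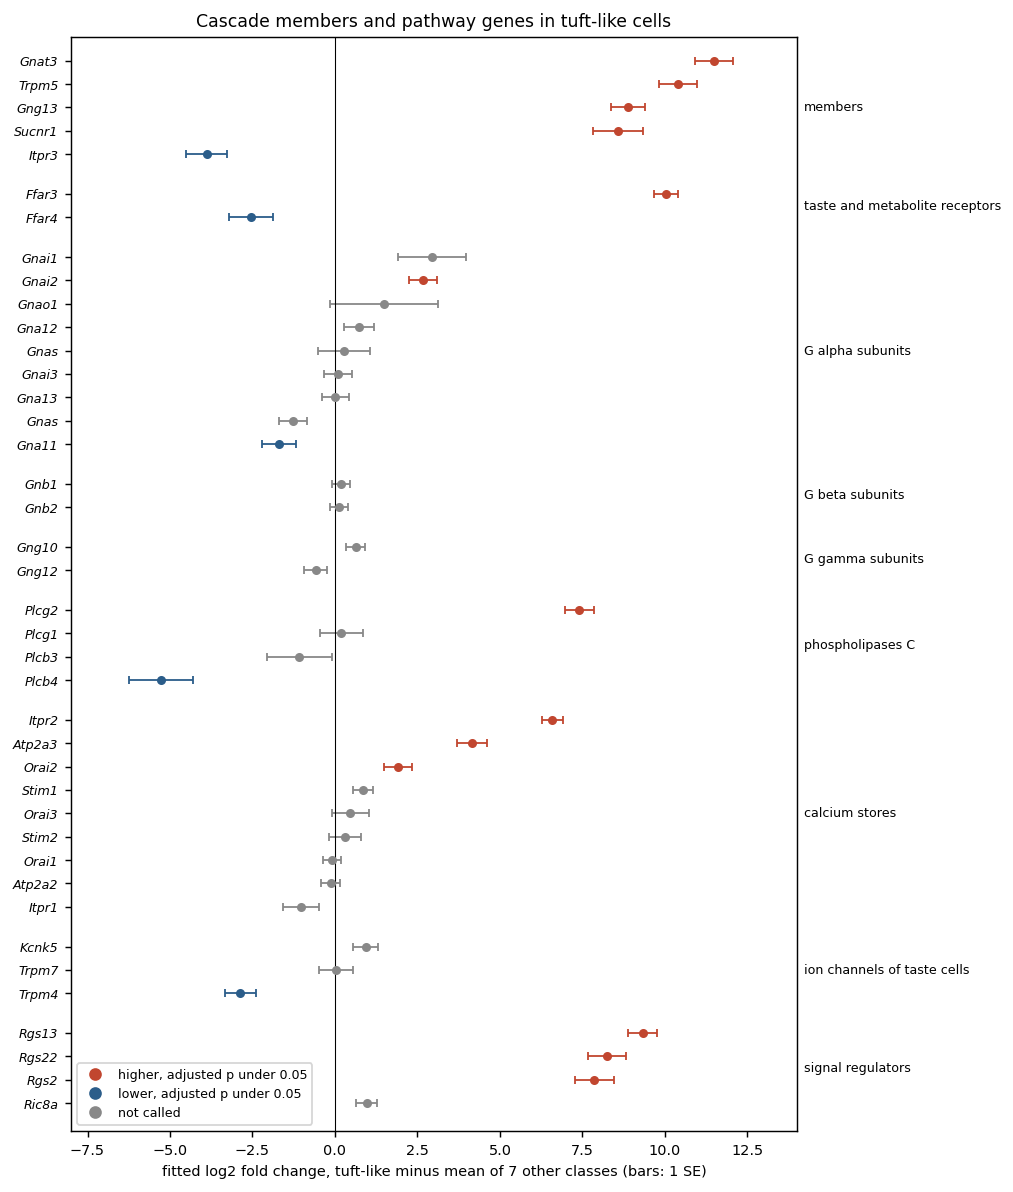
Fitted log2 fold change of tuft-like cells against the mean of the 7 other classes (bars, 1 SE) for the members and pathway genes that passed the filter, by list, except 3 genes with at most 1 UMI in tuft-like cells, whose fit gave no usable SE. Red points were called higher and blue points lower at an adjusted p under 0.05. Itpr2 and Plcg2 lie far to the right and Itpr3 and Plcb4 to the left.

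Outside all lists, the 5 genes whose log2 CPM over the 16 sums was most like the mean of the 8 members were Fgf12, LOC103692984, Vav1, Hpgds and Camp, with Pearson's r from 0.986 to 0.991. Fgf12, a fibroblast growth factor homologue that stays inside the cell and modulates sodium channels, was at 108 and 204 CPM in tuft-like cells and at most 3.79 CPM in any other sum. Vav1, a signalling protein known from lymphocytes, was at 110 and 116 CPM, Hpgds, a prostaglandin D synthase, at 52.7 and 44.3 CPM, and Camp, the cathelicidin antimicrobial peptide, at 101 and 81.8 CPM. Among the members themselves r with that mean was highest for Sucnr1 (0.983) and Trpm5 (0.981) and negative for Itpr3 (-0.737). The 16 sums share 2 libraries, and sums with no UMI set much of each r, so these are descriptions of likeness.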

How the data were processed

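Single-cell libraries of 2 rats were analysed, 1 per animal. The authors aligned the reads to rat genome rn6 with Cell Ranger and deposited raw UMI counts per gene and barcode (32883 genes, none normalized). The versions in the file headers were 3.1.0 (rat 1) and 5.0.1 (rat 2).

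Cells with over 1000 UMIs and at most 40% mitochondrial UMIs were kept. The study kept cells over 5000 UMIs with 200 to 5800 genes, which was run as an alternative. Seurat 5.3.0 clustered all cells on 2000 variable genes and 20 principal components after integration of the rats, at resolution 0.3. The 5 clusters with over 25% of cells holding Ptprc or over 20000 hemoglobin CPM were set aside, and epithelial and then secretory and stem clusters were clustered again at 0.5. None of the 8 members or pathway genes (125 entries in all) could serve as a variable gene. Names ending in "-like" came from marker lists, with cut-offs for naming chosen once the clusters had been inspected, so class limits may differ from the authors'. Scrublet in scanpy 1.11.5 called 373 of 9345 and 2 of 5523 cells as doublets, so in rat 2 it did not work. Calls were kept and their removal run as an alternative.

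Counts were summed per rat and class (16 sums of 80538 to 36601192 UMIs) and fitted in edgeR 4.0.16 (R 4.3.3) with TMM factors, filterByExpr and Benjamini-Hochberg adjustment over all 8946 genes tested, all tests two-sided. The named genes were the 8 members, each pathway gene called in tuft-like cells, and the 5 genes outside all lists most like the members' mean log2 CPM (prior count 2). Members, lists and this rule were chosen with earlier results of these data known. Other genes named beside a result were chosen after their values were seen. All classes of a rat come from 1 animal, so the rats pair the sums. Over the 28 pairs of classes, differences between the rats correlated with a median r of 0.216 (0.067 to 0.394), and rat as a block was run as an alternative. The fit was tested on simulated data, where 194 of 200 changed genes of the tuft-like comparison were recovered among 7476 genes, with 9 false calls. Each changed gene had an expected count over 1 in every sum before the change. The spread was the same for all genes, and no difference between the rats was added. Genes with 0 UMIs in most sums, such as Trpm5 and Sucnr1, were not imitated, so the recovery does not bear on their calls. Ratios have exact conditional binomial intervals, and shares of cells exact Clopper-Pearson intervals. Limits for a count of 0 are 3 UMIs.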

Additional observations from a re-analysis of the deposited data

How the results depend on the processing

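Settings tried were stricter filters on cells, other clusterings, removal of doublet calls, DESeq2 1.42.0, RLE factors, no filter on low counts, rat as a replicate block, sums without enterocyte-like cells or mitochondrial genes, and 3 chosen after seeing the data (without hemoglobin-bearing cells, without the CHE-like cell richest in Gnat3, and without shared barcodes). Under each of these where the gene was tested, Gnat3, Gng13, Sucnr1 and Trpm5 were called higher and Itpr3 lower in tuft-like cells, with highest adjusted p (edgeR or DESeq2) of 3.23e-06, 3.11e-07, 0.00194, 1.31e-06 and 0.00339. The exception was Trpm5 in cells over 5000 UMIs, where only 11 tuft-like cells of rat 1 remained and it did not pass the filter. For the members that rose, the direction was largely fixed by passing the filter. Settings that kept the filter therefore do not test that direction. Without the filter on low counts Plcb2 was called as well.

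The count of members called in EEC-like cells, 1, was 0 in cells over 5000 UMIs and 0 without enterocyte-like cells. In CHE-like cells it was 2 when the rats were merged without integration, as Trpm5 was called in addition to Gnat3. Over all genes, cells over 5000 UMIs gave 647 higher and 224 lower calls in tuft-like cells, against 1083 and 387. The replicate block gave 736 lower calls, including all 387, and 1413 higher calls, and changed no call of a member. In the pathway lists it gave 13 higher and 5 lower calls against 9 and 4. Without enterocyte-like cells the calls of Orai2 (adjusted p = 0.254, edgeR) and Gna11 (adjusted p = 0.102, edgeR) were lost. The number of pathway calls ranged from 8 to 13 higher and from 3 to 6 lower over the settings.

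With 1 rat left out, no residual spread remained and values have no test. They are differences of log2 CPM with a small added count, and so smaller than the fitted ones for genes at 0 elsewhere. In tuft-like cells they were 6.75 and 7.18 for Trpm5, 8.86 and 10.3 for Gnat3, 6.27 and 8.73 for Gng13, 4.10 and 6.10 for Sucnr1 and -7.30 and -3.36 for Itpr3. For Gnat3 in CHE-like cells they ran from -0.97, from rat 1 alone with its 8 cells, to 6.12, and for Itpr3 in EEC-like cells from 0.72 (rat 1) to 1.72 (rat 2). Depth limited Gnb3, Tas1r3, Plcb2 and all values of EEC-like cells and of CHE-like cells of rat 1, whose sums were the smallest.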

Other observations

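Outside the named epithelial classes, members were found at low levels. In the epithelial cells left unnamed, Gnat3 was at 1.32 CPM (rat 1) and 10.1 CPM (rat 2), where 15 of 545 cells held a UMI, and Trpm5 at 0.116 and 1.21 CPM. In clusters set aside as leukocytes Gnat3 was at 1.53 and 3.91 CPM. Itpr3 was at 39.5 and 50.5 CPM in leukocytes and at 3.93 and 0.330 CPM in erythroid cells, so its tuft-like level of 0 and 6.82 CPM was below that in leukocytes of the same rats. The only Tas1r3 UMI outside tuft-like cells was in a leukocyte of rat 1.

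Among tuft markers the rats differed in both directions. Ptgs1, which makes prostaglandin precursors, was 3.56 times as high in rat 2 (2.89 to 4.43), Sh2d7, an adaptor protein, 2.92 times as high in rat 1 (1.94 to 4.40), and Alox5ap, which activates leukotriene synthesis, was close to equal (ratio of rat 1 to rat 2 1.07, interval 0.975 to 1.17). These intervals cover counting error only, and the rats cannot be told apart from their libraries.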
